A study of Mus musculus with 6 samples.

Results

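Fbxo10 and 9 genes of the BCL2 family were followed in 6 RNA-seq libraries of sorted mouse calvarial cells, as 10 of the 23284 genes listed in each library. The members were chosen by gene name: Fbxo10 because it had the smallest p of all genes in the comparison of the treatments, and the BCL2 family genes because they act for or against cell death. That comparison was therefore used in the choice, and the members' values are given as a description with no test. The cells came from calvaria (skull cap bone) of CX3CR1-EGFP mice, whose EGFP reporter sits in the locus of Cx3cr1, the fractalkine receptor gene carried by monocytes and osteoclast precursors. Every mouse had lipopolysaccharide (LPS), a bacterial membrane component that provokes inflammation, injected at the calvarial periosteum. Together with it, the mice behind 3 libraries received 10 mg/kg CTLA4-Ig (abatacept, a fusion of CTLA-4 with an antibody Fc part that binds CD80 and CD86) and those behind the other 3 received 10 mg/kg whole human IgG as the control. EGFP-positive cells were sorted 5 days later. The titles call the libraries biological replicates, but the labels do not say which or how many animals each came from, nor their age, so errors and p-values measure the spread between these libraries.

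BCL2 family proteins decide whether the outer mitochondrial membrane stays closed. The anti-death members BCL2, BCL-XL (gene Bcl2l1), MCL1 and BCL2A1 hold the pore-forming members BAX and BAK (gene Bak1) in check. BH3-only proteins such as BID, BIM (gene Bcl2l11) and NOXA (gene Pmaip1) release or activate them, after which cytochrome c leaves the mitochondrion and caspases are activated. FBXO10 is the substrate-binding subunit of an SCF ubiquitin ligase and has been reported, in human lymphoma cells, to mark BCL2 protein for degradation. Neutrophils are short-lived cells known to depend on MCL1, and BCL2A1 is induced by inflammatory signals in myeloid cells.

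The libraries held RNA of several myeloid cell types. Cx3cr1 was present at 24.1, 16.6 and 26.5 FPKM (fragments scaled for transcript length and library size) after CTLA4-Ig, against 12.3, 23.8 and 32.5 FPKM after control IgG. The 14 measured neutrophil markers summed to 173598 to 240018 FPKM after CTLA4-Ig and 134101 to 153161 FPKM after control IgG, and 13 monocyte and macrophage markers to 3106 to 3300 and 3247 to 3334 FPKM. The 8 osteoclast markers summed to 43.8 to 54.9 FPKM after CTLA4-Ig and 45.1 to 56.0 FPKM after control IgG, and Acp5 (15.7 to 27.0 FPKM over all libraries) and Nfatc1 (23.0 to 24.6 FPKM) made up the larger share. Oscar was listed at 0 in every library. The spacing of the lowest values put the depth at 8980000, 8480000 and 9980000 fragments after CTLA4-Ig and 8480000, 9130000 and 8840000 after control IgG. Only results between 6000000 and 12000000 were kept, so the estimates had to fall there. These depths, and the fragment numbers derived from them, are therefore rough. Control library 1 stood apart most: in 59 genes it was more than 2-fold above each other library on the log2(FPKM + 1) scale, and in 26 genes more than 2-fold below, where the other libraries had 4 to 14 and 3 to 7 such genes. Because these are bulk samples, fewer cells of a type and less RNA per cell cannot be told apart.

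The members covered a wide range of levels, and the order of FPKM, which is scaled for transcript length, was similar in all libraries. Mcl1 was the highest at a mean of 152 FPKM over the 6 libraries, rank 565 of the 10865 genes that averaged 1 FPKM or more. It was followed by Bax at 81.0, Bak1 at 75.2 and Bid at 55.5 FPKM. A second tier held Bcl2l1 at 10.7, Pmaip1 at 9.49, Bcl2l11 at 8.60, Fbxo10 at 6.43, Bcl2a1b at 5.59 and Bcl2 at 3.91 FPKM, with Bcl2 at rank 8973. Mcl1 exceeded Bax, Bak1 exceeded Bid, and Bid exceeded Bcl2l1 in 6 of 6 libraries. The neighbours Bcl2l1 and Pmaip1 kept their order in 3 libraries, and Pmaip1 and Bcl2l11 in 4, so those pairs did not differ beyond their spread. Fbxo10 lay above Bcl2a1b in 2 of 3 CTLA4-Ig libraries and in 0 of 3 control libraries, an order that moves with the group difference Fbxo10 was chosen for.

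**Figure D1:**
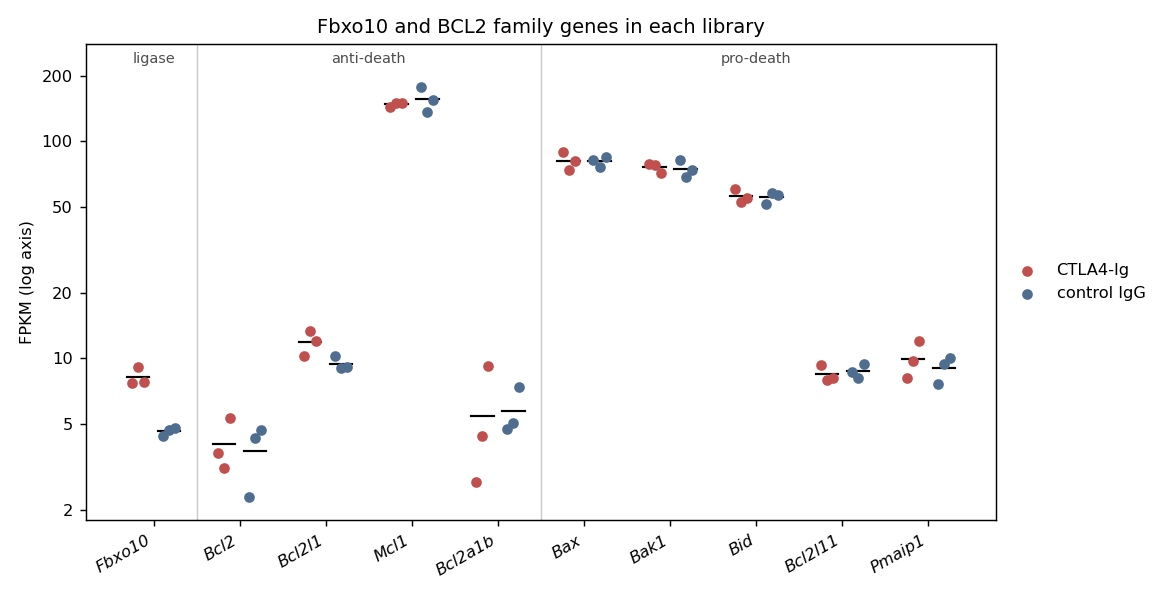
FPKM (log axis) of Fbxo10, the 4 anti-death and the 5 pro-death members in each library, with CTLA4-Ig in red left of control IgG in blue; points are single libraries and bars are group means (n = 3 each). Fbxo10 is the member whose groups do not overlap, at 7.74 to 9.13 FPKM after CTLA4-Ig and 4.41 to 4.80 FPKM after control IgG.

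Fbxo10 (chromosome 4, 45034247 to 45084604, minus strand, GRCm38) stood at 7.74, 9.13 and 7.79 FPKM after CTLA4-Ig, against 4.41, 4.69 and 4.80 FPKM after control IgG. All CTLA4-Ig libraries lay above all control libraries, and each group was tight. The means were 8.22 ± 0.788 FPKM after CTLA4-Ig and 4.64 ± 0.202 FPKM after control IgG (SD, n = 3 each), a ratio of 1.77. As log2(FPKM + 1), a scale on which changes of low genes are understated, the difference was 0.71 ± 0.09 (limma SE). Its absolute size ranked 118 among the 10865 genes, while its p ranked 1, which is the value that chose it. With the 4635 bases of its longest annotated coding transcript, the values correspond to about 322, 359 and 360 fragments after CTLA4-Ig and 173, 199 and 197 after control IgG. Counting error on such numbers is 5.27 to 7.60%. The coefficient of variation between libraries was 9.59% after CTLA4-Ig, above that range, and 4.35% after control IgG, below it. Choosing a gene by its smallest p favours a small spread, so the spread and the SE of Fbxo10 may be understated. Across all 10865 genes limma called 0 genes (0%) at a Benjamini-Hochberg adjusted p under 0.05, with a smallest adjusted p of 0.7196, and 659 genes (6.07%) had an unadjusted p under 0.05. No member was called in any setting tried, while settings that left out a library called up to 6 other genes and the fit with no filter on low values called 12.

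The span of Fbxo10 overlaps that of Polr1e, a gene for an RNA polymerase I subunit on the opposite strand, over 2319 bases, but in the GENCODE annotation their exons share 0 bases. Polr1e had 5.09, 5.52 and 4.84 FPKM after CTLA4-Ig and 5.37, 5.26 and 5.19 FPKM after control IgG, a log2 difference of -0.03.

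Neutrophil markers differed between the groups in the same direction as Fbxo10. Of the 14 measured markers, 14 had a positive log2 difference and in 10 the groups did not overlap, where 6.50% of all genes tested did not overlap and were higher after CTLA4-Ig. Their mean log2 level was 10.40 ± 0.19 after CTLA4-Ig and 9.82 ± 0.20 after control IgG (SD, n = 3 each), a difference of 0.57. Taken relative to that mean in the same library, a measure added after the values were seen, Fbxo10 stood at -7.10, -7.26 and -7.23 after CTLA4-Ig and at -7.51, -7.41 and -7.06 after control IgG in log2 units. On this relative scale the groups overlapped and the difference was 0.13, against 0.71 for the level itself. The 5 markers of early granulocyte precursors, such as the myeloperoxidase gene Mpo, had a mean difference of -0.08, and the monocyte and macrophage markers one of 0.10. The part of the neutrophil difference in that of Fbxo10 was not tested.

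The genes with the profile closest to Fbxo10, by the mean absolute difference of centred log2 levels over the 6 libraries, were Rhoc (0.077), Stap2 (0.082), Chi3l1 (0.093), Cebpe (0.095) and Mgll (0.095), where the median over 10864 genes was 0.361. Rhoc encodes a small GTPase, Stap2 a signalling adaptor, Chi3l1 a chitinase-like protein, Cebpe a transcription factor of late neutrophil maturation and Mgll a lipase that cleaves monoacylglycerols. All 5 were highest in CTLA4-Ig library 2, as Fbxo10 was, and so were 11 of the 14 neutrophil markers. Rhoc had 2.24, 3.39 and 2.98 FPKM after CTLA4-Ig and 1.36, 1.60 and 1.43 FPKM after control IgG. Cebpe, itself in the neutrophil list, had 189, 228 and 180 FPKM after CTLA4-Ig and 132, 143 and 139 FPKM after control IgG. Since Fbxo10 was chosen for its group difference, genes picked for likeness to it share that difference by construction, and the groups of all 5 did not overlap. The picking used the same 6 libraries, so it also favours genes that are highest in CTLA4-Ig library 2.

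**Figure D2:**
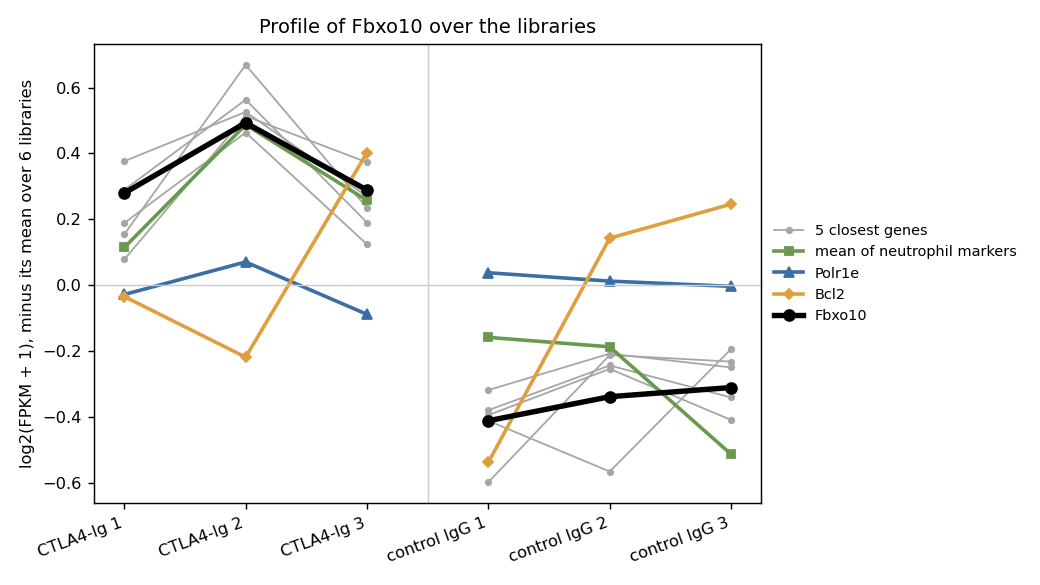
log2(FPKM + 1) minus its mean over the 6 libraries for Fbxo10 (black), the 5 closest genes (grey), the mean of the 14 neutrophil markers (green), Polr1e (blue) and Bcl2 (orange), with the 3 CTLA4-Ig libraries left of the 3 control IgG libraries. Fbxo10 and the neutrophil mean are both highest in CTLA4-Ig library 2, Polr1e differs by -0.03 between the groups, and Bcl2 is lowest in control library 1.

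Beside Fbxo10, none of the 9 BCL2 family members separated the groups. In 0 of 9 the groups did not overlap, where 12.2% of the genes tested did not (6.50% higher and 5.69% lower after CTLA4-Ig). For 9 genes a count of 0 is near that share. Of the 9, 6 had a positive and 3 a negative log2 difference, with a median of 0.02 against -0.01 over all genes tested. The median absolute difference was 0.07 for the 9 and 0.08 for all genes tested.

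Bcl2 (chromosome 1, 106538178 to 106714274, minus strand), the reported substrate of FBXO10, had 3.69, 3.13 and 5.35 FPKM after CTLA4-Ig, against 2.31, 4.31 and 4.70 FPKM after control IgG. The groups overlapped widely, with the lowest value in control library 1 and the highest in CTLA4-Ig library 3. The means were 4.06 and 3.77 FPKM, and the log2 difference was 0.10 ± 0.25 (limma SE). It was -0.14 without control library 1 and -0.08 without CTLA4-Ig library 3, so its direction rested on single libraries. Fbxo10 relative to Bcl2 stood at 2.10, 2.92 and 1.46 after CTLA4-Ig and at 1.91, 1.09 and 1.02 after control IgG, ratios that also overlapped. RNA was measured here and not BCL2 protein, on which the ligase is reported to act.

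Bcl2l1 (chromosome 2, 152780668 to 152831728, minus strand), which encodes the anti-death BCL-XL, had 10.23, 13.37 and 11.999 FPKM after CTLA4-Ig, against 10.24, 9.02 and 9.18 FPKM after control IgG. The groups overlapped narrowly, since CTLA4-Ig library 1 lay just under control library 1. The means were 11.9 ± 1.57 FPKM after CTLA4-Ig and 9.48 ± 0.664 FPKM after control IgG (SD, n = 3 each), a log2 difference of 0.29 ± 0.11 (limma SE) that ranged from 0.21 to 0.38 when single libraries were left out. After that of Fbxo10, this was the largest absolute difference among the 10 members, at rank 713 of 10865 genes. Its share of the summed anti-death FPKM was 6.39, 7.82 and 6.78% after CTLA4-Ig and 5.26, 5.81 and 5.24% after control IgG, without overlap. That sum mainly follows Mcl1, which was highest in control library 1 at 177 FPKM and lowers the share there. The level of Bcl2l1 itself overlapped, as did most other sums, shares and ratios of the members.

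Mcl1 (chromosome 3, 95658788 to 95663176, plus strand), whose protein is short-lived and holds BAK and BIM, had 143, 150.1 and 150.3 FPKM after CTLA4-Ig, against 177, 137 and 154 FPKM after control IgG. The CTLA4-Ig libraries lay inside the range of the controls, whose highest value was control library 1. The log2 difference was -0.07 ± 0.10 (limma SE), and 0.03 without control library 1.

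Bcl2a1b (chromosome 9, 89199209 to 89207827, plus strand) is a member of a mouse cluster of near-identical copies of the NF-kB-induced anti-death gene BCL2A1. Its coding bases and those of Bcl2a1a and Bcl2a1d, each 516 long, are shown over the first 150 bases, where 7 of the 12 positions that differ among the 3 genes lie. Capitals mark those positions, and lower case marks bases shared by all 3, to show how little sequence separates reads of these genes (GENCODE M21 transcripts, GRCm38, chromosome 9, each 5′ to 3′ on its own coding strand).
Bcl2a1a: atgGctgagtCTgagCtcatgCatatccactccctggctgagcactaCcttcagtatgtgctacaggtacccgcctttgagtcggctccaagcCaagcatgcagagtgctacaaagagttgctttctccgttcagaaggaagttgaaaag
Bcl2a1b: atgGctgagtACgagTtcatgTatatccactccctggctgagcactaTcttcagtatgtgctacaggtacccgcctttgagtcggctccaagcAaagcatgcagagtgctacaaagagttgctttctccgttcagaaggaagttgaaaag
Bcl2a1d: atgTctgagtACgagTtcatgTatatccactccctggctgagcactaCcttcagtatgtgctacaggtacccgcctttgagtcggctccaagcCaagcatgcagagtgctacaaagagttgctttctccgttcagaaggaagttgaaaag
Bcl2a1b was identical to Bcl2a1d at 510 of 516 coding bases (98.8%) and to Bcl2a1a at 505 (97.9%), with unbroken shared runs of 217 bases in both cases. How fragments from such runs were divided among the genes is not given in the sources used here, so the value of each gene is uncertain.

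Bcl2a1b had 2.70, 4.40 and 9.24 FPKM after CTLA4-Ig, against 4.72, 5.04 and 7.43 FPKM after control IgG, the widest spread among the members, with the lowest and the highest value both in CTLA4-Ig libraries. The log2 difference was -0.17 ± 0.36 (limma SE), -0.57 without CTLA4-Ig library 3 and 0.17 without CTLA4-Ig library 1. Bcl2a1d had 1.19, 1.27 and 3.9997 FPKM after CTLA4-Ig and 0.179, 2.63 and 2.57 FPKM after control IgG, and Bcl2a1a had 0, 0.362 and 1.93 FPKM and 0.536, 1.64 and 1.37 FPKM. The copies were all highest in CTLA4-Ig library 3. Summed over the 3 genes, the level was 3.89, 6.03 and 15.2 FPKM after CTLA4-Ig and 5.44, 9.31 and 11.4 FPKM after control IgG, and the groups overlapped. That sum depends little on how shared fragments were divided among these genes, but it misses any that were dropped or counted elsewhere. About 20 to 75 fragments stood behind Bcl2a1b in a library, with a counting error of up to 22.4%.

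The pore-forming members varied little. Bax (chromosome 7, 45461697 to 45466898, minus strand) had 89.4, 73.5 and 80.6 FPKM after CTLA4-Ig, against 82.0, 76.0 and 84.3 FPKM after control IgG. Bak1 (chromosome 17, 27019810 to 27029009, minus strand) had 78.3, 77.5 and 71.5 FPKM after CTLA4-Ig, against 81.5, 68.3 and 73.9 FPKM after control IgG. In both genes the groups overlapped throughout, with log2 differences of 0.00 ± 0.08 for Bax and 0.03 ± 0.08 for Bak1 (limma SE). The highest library was 1.22 times the lowest for Bax and 1.19 times for Bak1.

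Among the BH3-only members, Bid (chromosome 6, 120891930 to 120916853, minus strand), which links death receptors and caspase-8 to mitochondria, had 60.5, 52.3 and 55.0 FPKM after CTLA4-Ig, against 51.3, 57.5 and 56.4 FPKM after control IgG. Bcl2l11 (chromosome 2, 128126038 to 128162547, plus strand), whose product BIM is induced when survival factors are withdrawn, had 9.31, 7.93 and 8.16 FPKM after CTLA4-Ig, against 8.63, 8.14 and 9.41 FPKM after control IgG. Pmaip1 (chromosome 18, 66458533 to 66465565, plus strand), whose product NOXA binds MCL1, had 8.11, 9.69 and 12.03 FPKM after CTLA4-Ig, against 7.64, 9.40 and 10.1 FPKM after control IgG. The groups overlapped in each. Log2 differences were 0.02 ± 0.08 for Bid, -0.04 ± 0.09 for Bcl2l11 and 0.12 ± 0.15 for Pmaip1 (limma SE).

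Some members share exonic bases with other genes in the annotation: Bid 628 with Bcl2l13 and Bak1 177 and 437 with the gene models of Ggnbp1, both on the opposite strand, Bcl2 558 with an antisense gene, and Bax 192 and Bcl2a1b 401 with a gene model on the same strand. The library kit keeps strand, but whether the counting used it is not given in the sources used here, so such reads may stand under either gene. Bcl2l13 had 11.9, 12.9 and 11.8 FPKM after CTLA4-Ig and 11.3, 11.7 and 12.4 FPKM after control IgG.

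Summed FPKM of the 4 anti-death members was 160.1, 171 and 177 after CTLA4-Ig, against 195, 155 and 175 after control IgG. The 5 pro-death members summed to 246, 221 and 227 FPKM after CTLA4-Ig, against 231, 219 and 234 FPKM after control IgG. Both sums overlapped between the groups, as did the ratio of the pro-death to the anti-death sum at 1.37 ± 0.142 after CTLA4-Ig and 1.31 ± 0.114 after control IgG (SD, n = 3 each). Mcl1 alone made up 85.0 to 89.6% of the anti-death sum after CTLA4-Ig and 87.8 to 91.1% after control IgG, so that sum mainly follows Mcl1. Bax, Bak1 and Bid together dominated the pro-death sum, with Bax at 35.1 ± 1.60% after CTLA4-Ig and 35.4 ± 0.685% after control IgG (SD, n = 3 each). The ratio of Bcl2l11 to Mcl1 was 0.065, 0.053 and 0.054 after CTLA4-Ig and 0.049, 0.059 and 0.061 after control IgG, and that of Bax to Bcl2 was 24.2, 23.5 and 15.1 after CTLA4-Ig and 35.5, 17.7 and 17.9 after control IgG.

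**Figure D3:**
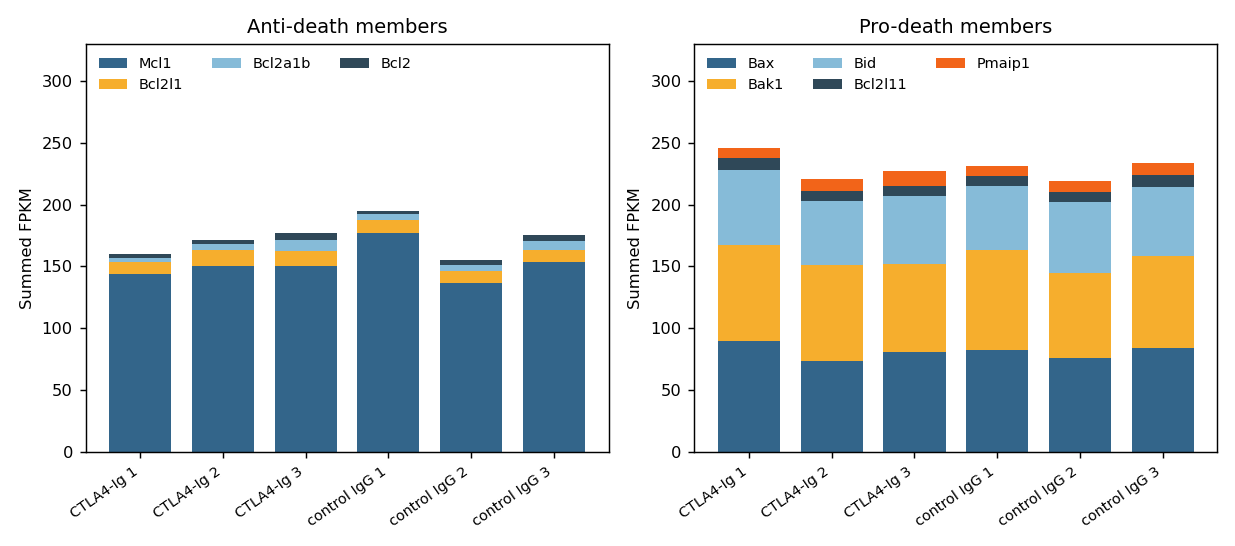
Summed FPKM of the anti-death members (left) and the pro-death members (right) in each library, stacked by gene, with the 3 CTLA4-Ig libraries left of the 3 control IgG libraries. Mcl1 fills 85.0 to 91.1% of each anti-death bar, and the bar heights of the groups overlap in both panels.

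Genes around the members were taken from 10 lists of 160 distinct genes, of which 119 averaged 1 FPKM or more. Of these 119, 0 passed at an adjusted p under 0.05 in limma, and 3 higher and 2 lower genes had an unadjusted p under 0.05, where 4.09% and 1.98% of all genes tested did. The groups did not overlap in 12 of the 119 (10.1%), against 12.2% of all genes tested, and the median log2 difference was 0.00. These shares lay near the background of all genes. The mean of the neutrophil markers differed by 0.57 in the same libraries, and its part in the values of the list genes was not tested.

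The other BCL2 family genes had no member without overlap, among 2 anti-death and 9 BH3-only or related genes tested. Of all genes tested 12.2% were without overlap, so a count of 0 in lists of this size is near the background. Bcl2l2, encoding the anti-death BCL-W, had a log2 difference of -0.05 ± 0.07, and Bmf, a BH3-only gene tied to the cytoskeleton, had -0.22 ± 0.23 (limma SE). Bcl2l15 had 0.36 ± 0.33 at a mean of 2.35 FPKM after CTLA4-Ig and 1.73 FPKM after control IgG. The pore-forming relative Bok had at most 0.43 FPKM in any library and was not tested.

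Downstream of the mitochondria, 12 of 13 apoptosome and caspase genes were tested, with a median log2 difference of -0.03. Casp1, which encodes the inflammasome caspase that matures IL-1β, had 43.1, 41.2 and 43.5 FPKM after CTLA4-Ig, against 45.7, 48.2 and 50.1 FPKM after control IgG. Aifm1, for a mitochondrial flavoprotein released in cell death, had a mean of 17.5 FPKM after CTLA4-Ig and 19.6 FPKM after control IgG. Both had groups without overlap, as did 12.2% of all genes tested, with log2 differences of -0.17 ± 0.06 for Casp1 and -0.15 ± 0.07 for Aifm1 (limma SE), and neither passed the adjusted test.

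Caspase inhibitors and their antagonists had 3 of 10 tested genes with a positive difference and a median of -0.07. Birc3, encoding the inhibitor cIAP2, had 25.9, 27.2 and 27.9 FPKM after CTLA4-Ig, against 40.3, 25.8 and 27.0 FPKM after control IgG, where control library 1 alone was high. Naip6, whose close relatives Naip2 and Naip5 could share its reads, had groups without overlap and a log2 difference of -0.15 ± 0.08 (limma SE). Inputs from p53 and death receptors had 0 of 12 genes without overlap and differences between -0.07 and 0.06. With 12.2% of all genes tested without overlap, counts of 0 or 1 in lists of this size are near the background. Among 14 survival signal genes, Pim3, a kinase gene, was the 1 gene without overlap, at 6.52, 5.77 and 6.46 FPKM after CTLA4-Ig against 8.12, 6.95 and 7.66 FPKM after control IgG. Its relative Pim1 had 26.7, 36.8 and 31.9 FPKM after CTLA4-Ig, against 78.9, 24.4 and 32.2 FPKM after control IgG, again with control library 1 apart.

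**Figure D4:**
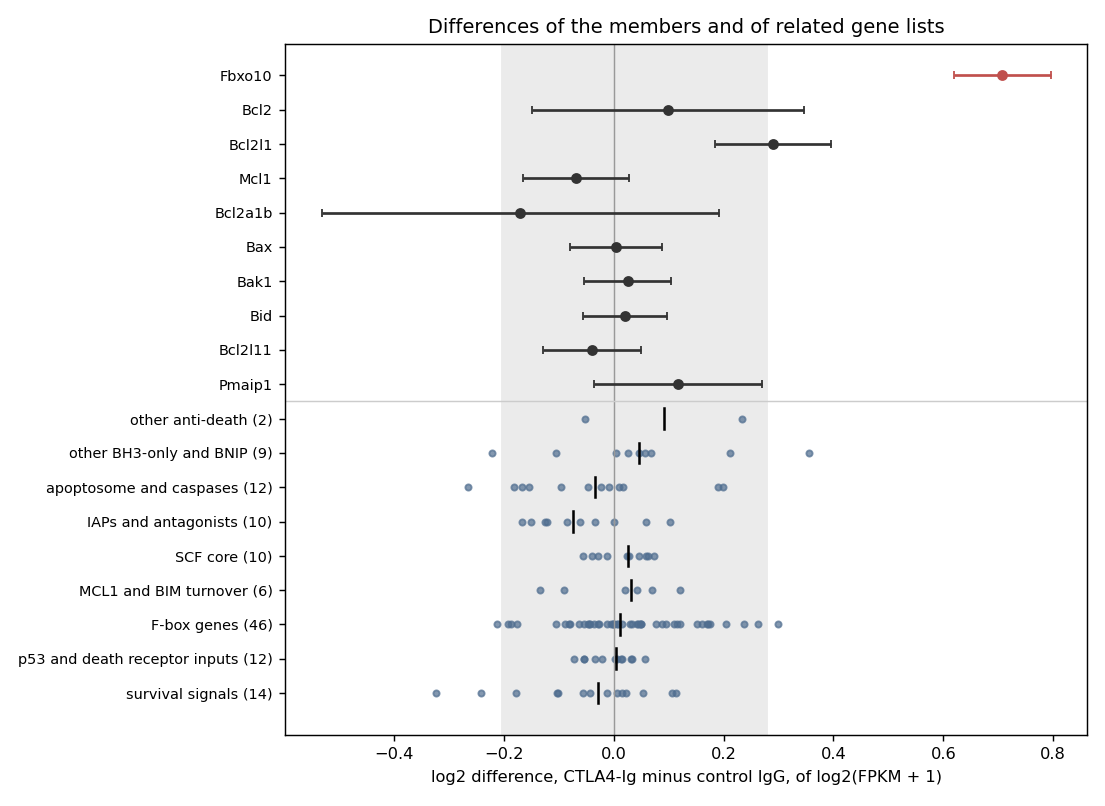
Log2 difference, CTLA4-Ig minus control IgG, of log2(FPKM + 1): the 10 members with limma standard errors (top; n = 3 libraries per group), and each tested gene of the related lists as a point with the list median as a bar (bottom; number of genes in brackets). The grey band spans the 5th to the 95th percentile of all 10865 genes tested, -0.20 to 0.28, and Fbxo10 at 0.71 and Bcl2l1 at 0.29 are the members beyond it.

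The partners of FBXO10 in the ligase were near the background of all genes. The 10 genes for the SCF core and its NEDD8 activation include the scaffold gene Cul1, the adaptor gene Skp1a and the RING gene Rbx1. Of these 10 genes, 0 were without overlap, where 12.2% of all genes tested were, and 0 in a list of this size is near that share. The differences ran from -0.06 to 0.07. Among 46 other F-box genes that averaged 1 FPKM or more, of 75 listed, the median difference was 0.01 and the range -0.21 to 0.30. The groups did not overlap in 5 of the 46 (10.9%), near the 12.2% of all genes, and all 5 were higher after CTLA4-Ig: Fbxl14, Fbxo46, Fbxo34, Fbxo5 and Fbxo33. Fbxl14 had a log2 difference of 0.17 ± 0.06 and Fbxo46 one of 0.20 ± 0.08 (limma SE). Fbxo11, the F-box gene whose product resembles FBXO10 in its repeat domain, had 14.5, 15.3 and 13.9 FPKM after CTLA4-Ig, against 12.9, 15.5 and 13.8 FPKM after control IgG, and the groups overlapped. Of 6 tested genes for the turnover of MCL1 and BIM, 2 had groups without overlap (33.3%), where 12.2% of all genes tested did. A share over 6 genes is too coarse to be read as a result about the list. The 2 genes were Huwe1, which encodes an MCL1 ubiquitin ligase, and Usp9x, which encodes an MCL1 deubiquitinase. Huwe1 averaged 21.6 ± 1.29 FPKM after CTLA4-Ig and 23.8 ± 0.761 FPKM after control IgG, and Usp9x 15.0 ± 0.223 and 16.0 ± 0.544 FPKM (SD, n = 3 each). Neither passed the adjusted test in limma.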

How the data were processed

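RNA-seq libraries of 3 CTLA4-Ig and 3 control IgG samples were grouped by the treatment label, with replicate numbers from the titles. The labels' protocols name miRNeasy extraction of total RNA and a TruSeq stranded mRNA kit. The submitters' processing notes name Cuffnorm 2.2.1, TopHat2 2.0.13, SAMtools 0.1.19 and Bowtie2 2.2.3, and the build mm10 (GRCm38). Their settings, the gene annotation and whether counting was by strand are not given in these sources. The authors deposited FPKM, as scaled by Cuffnorm, with 1 value per gene name and library that sum to 726358 to 851706 per library.

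Depth was estimated from 343 genes with 1 annotated transcript of at least 1000 bases and values above 0 in 1 or 2 libraries, taking each value as 1 fragment and the median of the results that fell between 6000000 and 12000000. Between 51.8 and 73.7% of the values lay there, and a model of counts was therefore not fitted. Fragment numbers cover counting error only.

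The fit of log2(FPKM + 1) used limma 3.58.1 under R 4.3.3 (eBayes with a trend, group as the 1 factor) over the 10865 genes that averaged 1 FPKM or more. P-values were two-sided and Benjamini-Hochberg adjusted with a threshold of 0.05, and all 10 members passed the filter. The script was checked on simulated data. Members and lists were chosen with earlier results of these data known. Named genes were the members, list genes without overlap or among the 2 largest differences of a list, genes overlapping a member, and the 5 closest profiles to Fbxo10. Bok, Cul1, Skp1a, Rbx1, Fbxo11, Naip2, Naip5 and Bcl2a1a were also named for their roles or likeness. Coordinates, overlaps and Bcl2a1 sequences come from GENCODE M21 (GRCm38). All list genes were found in the files. Some list genes are counted but not reported here singly. Of the cell type markers, Ly6g and Trac were not matched. Python 3.11.15, pandas 2.3.3, numpy 2.4.6 and matplotlib 3.10.9 were used. The settings varied were the pseudocount (0.1, 0.5), the filter (none, or a mean of 5 FPKM), median-of-ratios and quantile scaling, no trend, array weights, a replicate block, leaving out small RNA genes and leaving out each library.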

Additional observations from a re-analysis of the deposited data

How the results depend on the processing

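The log2 difference of Fbxo10, 0.71, was positive in each setting. It was 0.81 with a pseudocount of 0.1 and 0.64 to 0.74 when single libraries were left out, and 0.13 relative to the mean of the neutrophil markers, which was added after the data were seen. Leaving out single libraries gave 0 to 6 genes at an adjusted p under 0.05 in limma and 338 to 858 at an unadjusted p under 0.05, the lowest without CTLA4-Ig library 2. With no filter on low values limma called 12 genes, and 1024 had an unadjusted p under 0.05. None of these calls was a member or a gene of the lists, and the cause of the changed counts was not tested. The rank of Fbxo10 by p ran from 1 to 17 over the settings. The other 9 members moved by less than the spread between replicates in 143 of 143 pairs of a member and a setting. Most of these pairs could not have moved more. Leaving out 1 of 3 libraries always shifts a group mean by less than that spread. The changed filters, no trend and the replicate block left each difference as it was. The count is therefore no measure of stability, and only Bcl2l1 kept its sign in all settings. The difference of Bcl2a1b ran from -0.57 to 0.17 when single libraries were left out. Of 144 list medians under other settings, 140 moved by less than the spread between replicates. Deviations of same-numbered libraries from their group means correlated at -0.15, -0.09 and -0.02. Deviations in a group of 3 sum to 0, so these values cannot show whether same-numbered libraries were paired. With the replicate block the difference of Fbxo10 was 0.71, with 0 genes called and 619 at an unadjusted p under 0.05. With 3 libraries per group and about 20 to 75 fragments, the direction of Bcl2a1b could not be determined.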
